A study of Homo sapiens with 6 samples.

Results

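The genes described here are the core genes of the circadian clock, followed in DND41, an established human line of T-cell acute lymphoblastic leukaemia, after 24 h with MB1-47 or with its solvent DMSO. MB1-47 is described in the series title as a mitochondrial uncoupling drug, that is, a compound that lets protons cross the inner mitochondrial membrane without making ATP. There were 3 libraries per group, from cells plated in triplicate in RPMI medium with serum; the labels give the dose as 4 mM, a unit repeated here as written. Whether these were independent cultures is not stated beyond that, and the spread behind each p-value may be technical. The members were the genes of a list of 10 clock symbols that had a mean of at least 10 normalized counts over the 6 libraries, and 9 of the 17202 genes in the table met this: CLOCK, ARNTL, PER2, PER3, CRY1, CRY2, NR1D1, NR1D2 and DBP. PER1 is not analysed here. The lowest mean among the 9 was that of PER3 (16.3), and none of the 9 lay below the limit.

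The clock is a transcriptional feedback loop. CLOCK and ARNTL (also named BMAL1) form a heterodimer that binds E-box DNA and activates the PER and CRY genes, whose proteins return to the nucleus and repress that heterodimer. A second loop runs through NR1D1 and NR1D2 (REV-ERBα and REV-ERBβ), haem-binding nuclear receptors that repress ARNTL at ROR elements, where the ROR receptors activate; DBP, a PAR bZIP factor, is an output of the E-box loop that acts on D-box DNA. Clock transcripts oscillate in synchronized cells, and all 6 libraries were taken at a single time, so the values give levels at that time and carry no information on phase or period.

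The promoter stretches below are shown because the results turn on NR1D2, which rose, and on its paralog NR1D1, for which no change was called; CLOCK, which also rose, and PER3, which had the widest interval, are added for comparison. They come from RefSeq on GRCh38.p14, are limited to bases before an annotated transcription start that lie outside every GENCODE 29 exon, and read 5′ to 3′ on the gene's strand. Capitals mark the motifs found on either strand: the E-box CACGTG, its variant CACGTT (reverse complement AACGTG), the D-box TTATGTAA or TTACGTAA (the first of these reads TTACATAA on the other strand) and the ROR element TAGGTCA or TGGGTCA (the latter reads TGACCCA on the other strand).
NR1D2, chr3:23945871-23946120, plus strand: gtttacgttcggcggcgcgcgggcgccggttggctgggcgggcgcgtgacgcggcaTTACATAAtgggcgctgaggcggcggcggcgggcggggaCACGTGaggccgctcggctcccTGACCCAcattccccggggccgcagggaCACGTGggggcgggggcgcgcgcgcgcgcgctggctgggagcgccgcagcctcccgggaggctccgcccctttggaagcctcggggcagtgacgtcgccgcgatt
NR1D1, chr17:40100726-40100839, minus strand: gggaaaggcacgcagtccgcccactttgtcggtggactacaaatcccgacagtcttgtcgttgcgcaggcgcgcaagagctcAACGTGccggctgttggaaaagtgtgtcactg
CLOCK, chr4:55545933-55546182, minus strand: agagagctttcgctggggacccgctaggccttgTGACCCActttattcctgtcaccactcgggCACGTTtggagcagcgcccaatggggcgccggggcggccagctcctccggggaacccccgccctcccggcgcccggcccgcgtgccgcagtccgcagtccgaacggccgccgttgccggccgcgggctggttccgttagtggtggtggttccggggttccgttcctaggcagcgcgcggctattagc
PER3, chr1:7784041-7784290, plus strand: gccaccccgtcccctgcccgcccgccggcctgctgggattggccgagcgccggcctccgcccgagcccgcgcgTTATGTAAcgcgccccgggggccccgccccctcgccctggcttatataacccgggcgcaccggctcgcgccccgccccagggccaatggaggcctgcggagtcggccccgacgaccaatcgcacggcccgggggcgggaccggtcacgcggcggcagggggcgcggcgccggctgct
The NR1D2 stretch shown lies inside the gene's span, before the second of 2 annotated starts. It holds E-boxes starting at -155 and -105, a D-box at -194 and a ROR element at -133 relative to that start. The NR1D2 stretch before the first start, chr3:23945036-23945259, is not shown and holds 0 of these motifs. NR1D1 has a CACGTT variant at -168. The CLOCK stretch also lies inside its gene's span. Relative to the annotated start that it precedes, it has that variant at -187 and a ROR element at -217. The other CLOCK window, before another annotated start, is not shown and holds none of these motifs. PER3 has a D-box at -177 in the stretch shown. Another PER3 stretch, chr1:7784179-7784319, is not shown and holds 0 of these motifs. Over 35116 RefSeq windows of 250 bases before a start, the E-box occurred in 6.34%, the CACGTT variant in 4.55%, the D-box in 0.94% and the ROR element in 4.82%. Among the 14 windows of the 9 clock genes, these motifs occurred in 1, 5, 2 and 3 windows. The cAMP response element TGACGTCA occurred in 1.65% of all windows and in 0 of the 14. These are matches of letters only; no binding was measured.

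Values are the deposited normalized counts, group levels are mean ± SD (n = 3), and a change is the MB1-47 mean minus the DMSO mean on the log2(value + 1) scale, ± SE. Adjusted p-values come from limma's moderated test with Benjamini-Hochberg adjustment over the 13465 genes that reached a mean of 10, and a gene was called at an adjusted p below 0.05. Library totals of the normalized counts ran from 28323706 to 32667526 and are not sequencing depths, which are unknown. Of 11 T-lineage markers, 10 were in the table and all 10 had a mean of at least 10; their summed level ran from 49980 to 53590 with DMSO and from 32040 to 34830 with MB1-47. The sums hide a split: of these 10, 2 (CD28 and BCL11B) were called higher and 4 lower, beside 18.3% and 19.8% of all tested genes. Of 5 B-cell markers, 4 reached a mean of at least 10, with sums of 16660 to 17920 and 7371 to 8371. Most of each sum was CD79A, which this line expresses. Among these 4, EBF1 was called higher and CD79A lower. Of 8 myeloid and erythroid markers, 1 reached that mean, with sums of at most 44.9; CD14 was listed at 0 in all 3 MB1-47 libraries and in DMSO replicate 1. Of 7 stromal, endothelial and epithelial markers, 3 reached it, with sums of 2445 to 3337 and 1553 to 1851. Most of each sum was PDGFRB and PECAM1, which were both called lower, while KRT8 had a higher mean with MB1-47 and was not called. What part the shifts in these sums have in the results was not tested. Fewer cells of a kind and less RNA per cell cannot be told apart in these bulk samples.

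After MB1-47 the clock genes did not move as a block. NR1D2 rose 3.77-fold, CRY1 1.51-fold and CLOCK 1.44-fold, while ARNTL, PER2, CRY2, NR1D1 and DBP had group means within 1.13-fold of each other and overlapping libraries; PER3 was low and scattered. Thus 3 of the 9 were called higher and 0 lower, against 38.1% of all tested genes called (18.3% higher and 19.8% lower), so the share of clock genes called was close to that of the transcriptome. The 0 called lower was 0 in all 15 alternative settings, and no clock gene had a negative change at an unadjusted p below 0.05. The groups did not overlap for CLOCK, PER3, CRY1 and NR1D2, all higher with MB1-47, against 49.3% of all tested genes without overlap (24.1% higher and 25.2% lower). The direction of PER3 here, and its place among the 9, were in part set by the limit on the mean. PER3 met that limit only through the MB1-47 libraries. The median change of the 9 was 0.19, beside 0.02 over all genes tested; scaling to equal library totals moved the median over all genes to 0.15. That scaling also turned the balance of calls over all genes, from 2458 higher and 2667 lower to 3336 higher and 2061 lower of 13477, while the same 3 clock genes were called.

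**Figure D1:**
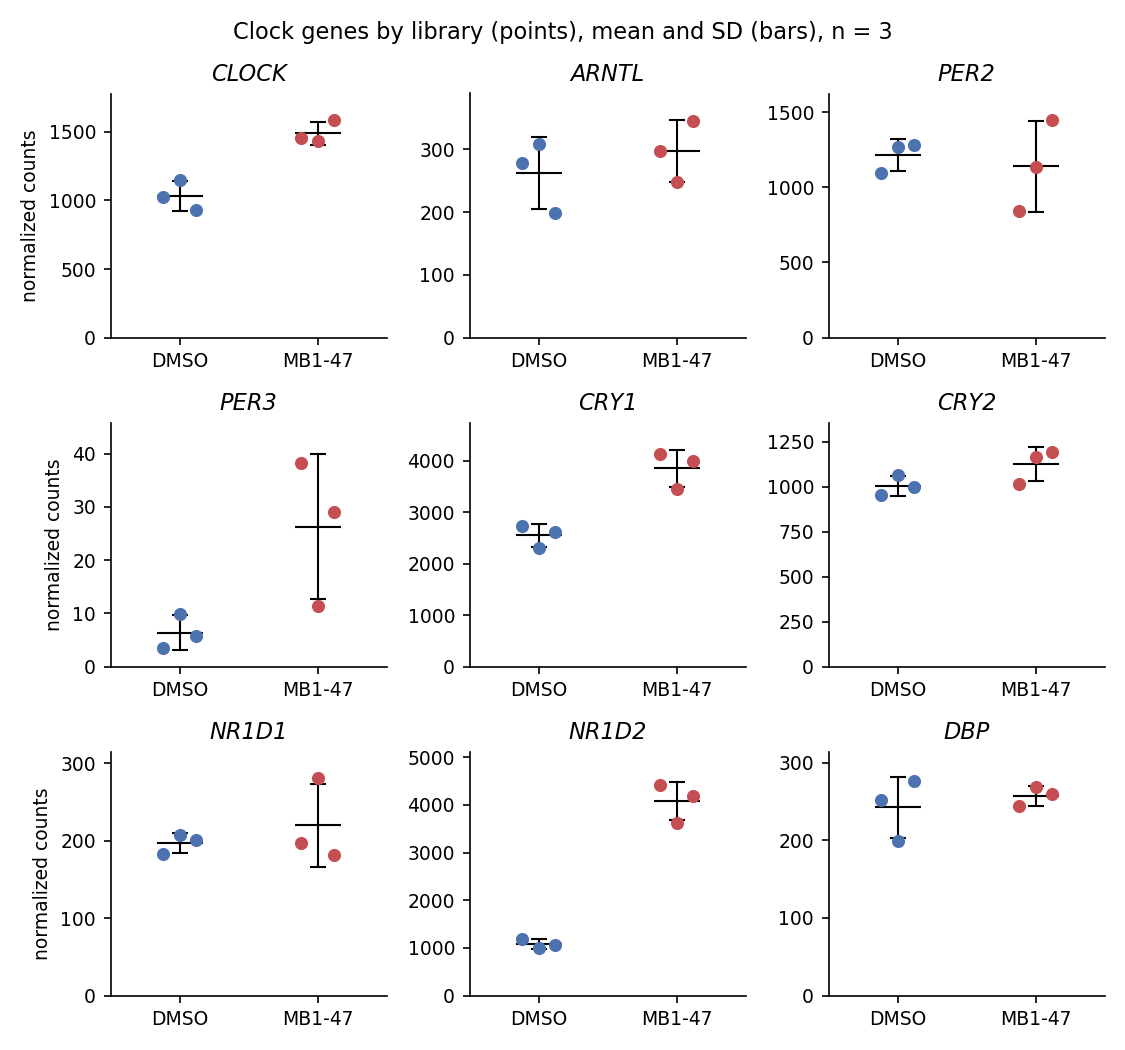
Normalized counts (y axis, from 0) of the 9 clock genes in each DMSO (blue) and MB1-47 (red) library; points are libraries and black bars are mean and SD (n = 3). NR1D2, CRY1 and CLOCK lie higher in all 3 MB1-47 libraries, PER3 reaches at most 38.2, and the groups overlap for the other 5 genes.

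The 2 activators of the loop differed in whether a change was called. CLOCK, the bHLH-PAS partner with acetyltransferase activity, on chromosome 4 from 55427903 to 55547138 (GENCODE 29, GRCh38), stood at 1022, 1150 and 929 normalized counts with DMSO and at 1452, 1432 and 1583 with MB1-47. Every MB1-47 library exceeded every DMSO library. The change was 0.53 ± 0.12 with an adjusted p of 0.0052. The 3′ part of CLOCK overlaps exons of TMEM165 on the opposite strand, and whether the counting used strand is not given in the sources used here; TMEM165 changed by -0.13 ± 0.12 (adjusted p = 0.433).

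ARNTL, the obligate partner of CLOCK, on chromosome 11 from 13276652 to 13387266, stood at 279, 309 and 198 with DMSO and at 298, 248 and 346 with MB1-47. The groups overlapped and no change was called (0.19 ± 0.23, adjusted p = 0.552). The size of the change rested on single libraries: it was 0.005 without DMSO replicate 3, 0.08 without MB1-47 replicate 3, and 0.32 without DMSO replicate 2 or without MB1-47 replicate 2. The 95% interval, from -0.32 to 0.71, still holds the change measured for CLOCK. Within a library, the log2 value of CLOCK minus that of ARNTL was 1.87, 1.89 and 2.23 with DMSO and 2.28, 2.53 and 2.19 with MB1-47; these differences are not corrected for transcript length, and the groups overlapped.

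Among the PER genes, which encode the scaffold of the repressor complex, neither analysed member was called. PER2, on chromosome 2 from 238244038 to 238290102, stood at 1092, 1270 and 1282 with DMSO and at 840, 1137 and 1445 with MB1-47. The MB1-47 libraries enclosed the whole range of the DMSO libraries, with an SD of 303 against 107. The change was -0.12 ± 0.18 (adjusted p = 0.635; 95% interval -0.52 to 0.28), and it was 0.01 with equal library totals. PER3, on chromosome 1 from 7784320 to 7845177, stood at 3.43, 9.95 and 5.75 with DMSO and at 38.2, 11.4 and 29.1 with MB1-47. The ratio of its group means was 4.12. Its groups did not overlap, but MB1-47 replicate 2 lay close to DMSO replicate 2, and the change of 1.83 ± 0.81 was not called (adjusted p = 0.102, between 0.0534 and 0.314 over 14 alternative settings). PER3 reached the mean of 10 only through the MB1-47 libraries, so its direction among tested genes was in part set by that limit. Exons of PER3 overlap UTS2 and an antisense gene on the opposite strand.

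The CRY genes encode flavoproteins that block the CLOCK heterodimer. CRY1, on chromosome 12 from 106991364 to 107093829, stood at 2735, 2312 and 2617 with DMSO and at 4136, 3454 and 3993 with MB1-47. The lowest MB1-47 library was above the highest DMSO library, and the change was 0.59 ± 0.11 (adjusted p = 0.00109). CRY2, on chromosome 11 from 45847118 to 45883248, stood at 953, 1066 and 999 with DMSO and at 1018, 1167 and 1193 with MB1-47. Its lowest MB1-47 library fell inside the DMSO range, and no change was called (0.16 ± 0.12, adjusted p = 0.331; 95% interval -0.11 to 0.43). CRY1 overlaps exons of an antisense gene near its start, AC078929.1, which is not analysed here.

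The nuclear receptor NR1D2 had the largest change among the 3 called genes. On the log2 scale it was also above that of PER3, which was not called, but the order of these 2 turned without DMSO replicate 2 (1.86 for NR1D2 and 2.16 for PER3) and without MB1-47 replicate 2 (1.996 and 2.32), and by the ratio of group means PER3 was higher. On chromosome 3 from 23945260 to 23980618, it stood at 1186, 992 and 1060 normalized counts with DMSO and at 4405, 3626 and 4193 with MB1-47. The lowest MB1-47 library was far above the highest DMSO library. The change of 1.91 ± 0.11 (adjusted p = 8.37e-07; 95% interval 1.66 to 2.17) was the 247th largest rise among 13465 genes and lay beyond the 95th percentile of all changes, which was 1.29. Over the 15 alternative settings it ran from 1.86 to 2.04. No exon of another gene overlaps an exon of NR1D2 in GENCODE 29.

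NR1D1, the paralog of NR1D2, on chromosome 17 from 40092787 to 40100725, stood at 183, 207 and 201 with DMSO and at 197, 281 and 181 with MB1-47. MB1-47 replicate 2 lay above the DMSO range and MB1-47 replicate 3 just below it, and no change was called (0.13 ± 0.24, adjusted p = 0.704; 95% interval -0.39 to 0.66). Without MB1-47 replicate 2 the change was -0.06. The 3′ end of NR1D1 overlaps exons of THRA, a thyroid hormone receptor on the opposite strand, which rose from 1185 ± 63.3 to 1657 ± 138 (0.48 ± 0.11, adjusted p = 0.00619); whether its reads were kept apart from those of NR1D1 was not tested.

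DBP, the PAR bZIP output of the loop, on chromosome 19 from 48630030 to 48637438, stood at 252, 199 and 276 with DMSO and at 244, 268 and 259 with MB1-47. The MB1-47 libraries lay inside the DMSO range, and the change was 0.10 ± 0.21 (adjusted p = 0.756; 95% interval -0.36 to 0.55; -0.04 without DMSO replicate 2). Its end overlaps exons of SPHK2 on the opposite strand, which fell from 558 ± 49.8 to 330 ± 72.1 (-0.77 ± 0.19, adjusted p = 0.00824).

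**Figure D2:**
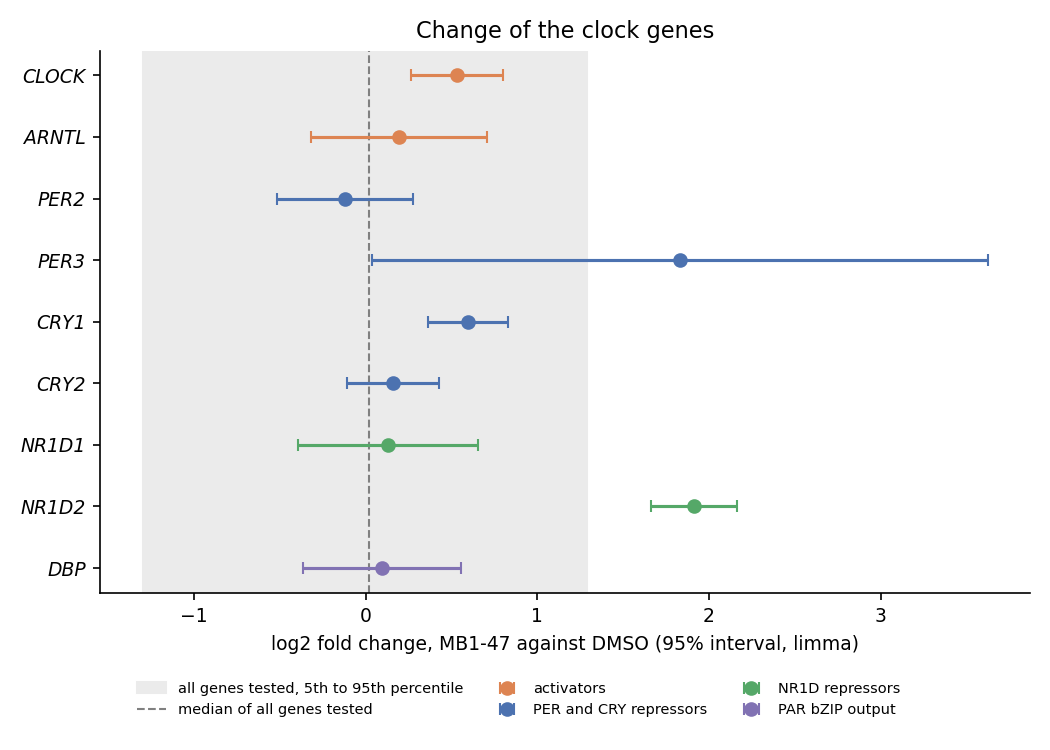
Log2 fold change of MB1-47 against DMSO (x axis) for the 9 clock genes, with 95% intervals from limma and colours for their roles; the grey band spans the 5th to 95th percentile of all 13465 genes tested (-1.30 to 1.29) and the dashed line is their median (0.02). The interval of NR1D2 lies wholly above the band, and that of PER3 is the widest.

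Activators were set against repressors by taking, in each library, the mean log2 value of PER2, PER3, CRY1, CRY2, NR1D1 and NR1D2 minus that of CLOCK and ARNTL. This difference was -0.52, -0.45 and -0.06 in the DMSO libraries and 0.09, 0.06 and -0.01 in the MB1-47 libraries. The mean shifted by 0.39, from -0.34 ± 0.24 to 0.05 ± 0.05, as the repressor mean went from 8.67 ± 0.11 to 9.42 ± 0.12 and the activator mean from 9.01 ± 0.24 to 9.37 ± 0.16. The shift rested on 2 genes: without PER3 it was 0.17, and without PER3 and NR1D2 it was -0.17. Each of these shifts was smaller in size than the SD of the DMSO libraries for the same score (0.26 for each). No p is given for this score, since the genes were chosen with results known. PER3 entered the score only through its MB1-47 libraries, so its share of the shift was in part set by the limit on the mean.

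Paralogs within the clock, and the partners CLOCK and ARNTL, were compared as the log2 difference within each pair in each library. NR1D2 minus NR1D1 was 2.69, 2.25 and 2.39 with DMSO and 4.47, 3.69 and 4.53 with MB1-47, so every treated library exceeded every control, by 1.78 on average. CRY1 minus CRY2 was 1.52, 1.12 and 1.39 with DMSO and 2.02, 1.56 and 1.74 with MB1-47, an average shift of 0.43 without overlap. PER3 minus PER2 shifted by 1.95 and ARNTL2 minus ARNTL by -2.18, also without overlap. ARNTL2 is the paralog of ARNTL. Of all tested genes taken singly, 49.3% did not overlap, and the share among pairs of genes was not computed. For each of the 4 pairs without overlap the two-sided exact permutation p over the 6 libraries was 0.1, the smallest possible with 3 against 3. Adjusted over the 6 pairs compared it was 0.15. Any pair without overlap gets this p, so it adds nothing to the lack of overlap. The genes were chosen with results known, so these p-values are a description only. PER3 reached the mean of 10 only through the MB1-47 libraries. The direction of PER3 minus PER2 was therefore in part set by that limit, and its p cannot be read as a test of that direction. CLOCK minus ARNTL shifted by 0.34, and NPAS2, a paralog of CLOCK, minus CLOCK by 0.53, both with overlapping libraries (exact permutation p = 0.2, adjusted 0.2, for each).

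**Figure D3:**
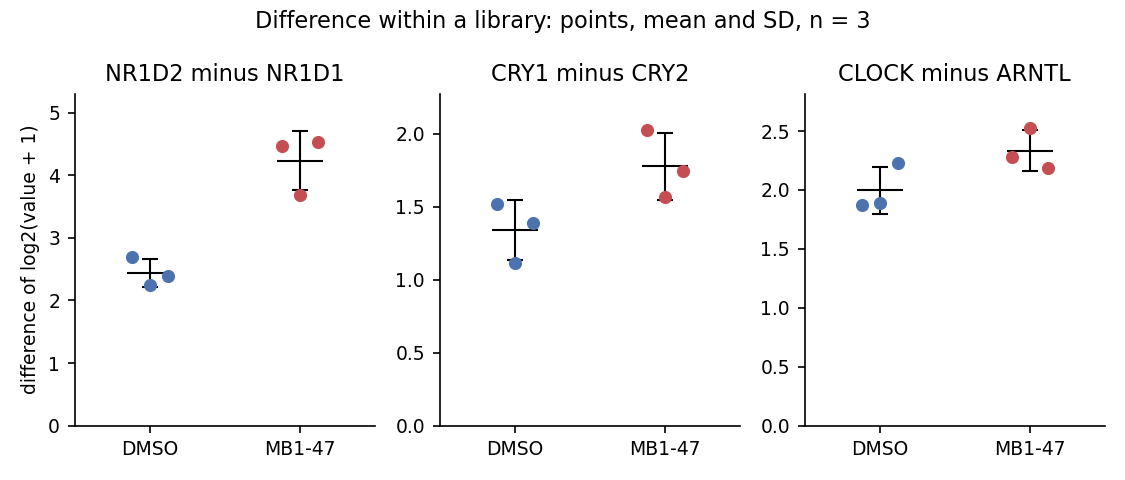
Log2 difference of normalized counts between paired clock genes within each library (y axis, from 0), for NR1D2 minus NR1D1, CRY1 minus CRY2 and CLOCK minus ARNTL; points are libraries and black bars are mean and SD (n = 3). The groups are separate in the first and second panels and overlap in the third.

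The paralogs of the activators moved in opposite directions. NPAS2, which can replace CLOCK, stood at 346, 248 and 191 with DMSO and at 510, 438 and 666 with MB1-47, a rise of 1.06 ± 0.25 (adjusted p = 0.00568). All 3 treated libraries were above the controls. ARNTL2, the paralog of ARNTL, stood at 190, 203 and 143 with DMSO and at 54.7, 104 and 14.5 with MB1-47, a change of -1.98 ± 0.58 (adjusted p = 0.0196). The treated libraries of ARNTL2 were far apart: without MB1-47 replicate 3 the change was -1.22, without MB1-47 replicate 2 it was -2.59, and the call was lost without DMSO replicate 2 (-1.89, adjusted p = 0.0644) and in limma without the intensity trend (adjusted p = 0.0891; lowest over settings 0.0034).

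Of 8 factors of the secondary loop, 5 were tested, 3 rose and 0 fell, with a median of 0.79, where 18.3% of all tested genes rose and 19.8% fell. BHLHE40 (DEC1), an E-box repressor that competes with the CLOCK heterodimer, stood at 1586, 1139 and 1380 with DMSO and at 3650, 3469 and 3686 with MB1-47 (1.41 ± 0.12, adjusted p = 8.82e-06). TEF, a PAR bZIP relative of DBP, stood at 285, 216 and 323 with DMSO and at 1047, 663 and 852 with MB1-47 (1.63 ± 0.21, adjusted p = 0.000142). So TEF rose 3.11-fold where DBP, of the same family, was not called; the difference between them was not tested. RORB, an activator at ROR elements, went from 3774 ± 321 to 6556 ± 795 (0.79 ± 0.11, adjusted p = 0.000192).

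The other secondary loop factors were low or not called. NFIL3, a repressor at D-boxes, was 251, 213 and 200 with DMSO and 285, 390 and 288 with MB1-47 (0.52 ± 0.21, adjusted p = 0.0757); its groups did not overlap, and it was called in 1 of 15 alternative settings, equal library totals (0.65, adjusted p = 0.0355). RORA stood at 19.0 ± 12.3 and 26.4 ± 12.6, with no change called (adjusted p = 0.557; the change of 0.59 was 0.01 without DMSO replicate 3). HLF, the third PAR bZIP gene, was listed at 0 in the 3 DMSO libraries and at 4.72, 8.99 and 4.75 with MB1-47, below the mean of 10. CIART was at 4.10, 22.7 and 0 with DMSO and at 16.4, 6.41 and 1.98 with MB1-47, also below it. BHLHE41 is not analysed here.

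Of 16 genes for kinases, ubiquitin ligases and deacetylases that act on clock proteins, 13 were tested, 4 rose and 2 fell, so 6 of 13 were called against 38.1% of all tested genes, with a median of 0.02, beside 0.02 over all genes. SIRT1, a NAD-dependent deacetylase, rose from 2076 ± 151 to 3281 ± 300 (0.66 ± 0.10). The catalytic subunits of casein kinase 2 diverged, CSNK2A2 at 0.65 ± 0.07 and CSNK2A1 at -0.47 ± 0.07 (-0.29 with quantile normalization). The adjusted p-values of these 3 lay between 4.57e-05 and 0.000534. The other calls were smaller. FBXW11, a ligase subunit for PER proteins, rose by 0.41 ± 0.12 (adjusted p = 0.0169; 0.0506, 0.0531, 0.0717 and 0.0678 without DMSO replicate 2, DMSO replicate 3, MB1-47 replicate 1 and MB1-47 replicate 3). CSNK1A1 rose by 0.23 ± 0.07 (adjusted p = 0.0281; lost when any library except DMSO replicate 2 was left out, with values from 0.0539 to 0.104). Its change was 0.36 with equal library totals and 0.45 with quantile normalization, both called. USP7, a deubiquitinase of CRY proteins, changed by -0.40 ± 0.11 (adjusted p = 0.0172; 0.0546 without DMSO replicate 3 and 0.0564 with equal library totals); with quantile normalization it was -0.21 (adjusted p = 0.124). In limma without the intensity trend the calls of FBXW11, CSNK1A1 and USP7 were lost (adjusted p = 0.0866, 0.0952 and 0.0984). The kinases best known for timing PER turnover were not called: CSNK1D, at -0.22 ± 0.10 (adjusted p = 0.116), and CSNK1E, at -0.08 ± 0.09 (adjusted p = 0.553), both named after their values were seen.

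Of 15 coactivators, corepressors and partners of clock proteins, all were tested, 4 rose and 3 fell, so 7 of 15 were called against 38.1% of all tested genes, with a median of 0.09. TBL1XR1 and TBL1X, subunits of the NCOR-HDAC3 corepressor complex through which NR1D receptors repress, rose by 0.68 ± 0.07 and 0.58 ± 0.08 (adjusted p = 3.63e-05 and 0.000182). NCOR1 and HDAC3 had changes of 0.15 and -0.13 and were not called. The histone acetyltransferase CREBBP rose from 5383 ± 693 to 8767 ± 1054 (0.70 ± 0.11, adjusted p = 0.000618). Its relative EP300 rose by 0.43 ± 0.14 (adjusted p = 0.0361), a call that held only without DMSO replicate 2 or MB1-47 replicate 3 among the 6 sets with a library left out; the adjusted p was 0.0954, 0.149, 0.0546 and 0.12 without DMSO replicate 1, DMSO replicate 3, MB1-47 replicate 1 and MB1-47 replicate 2, and 0.141 in limma without the trend. TIPIN, the replication fork partner of TIMELESS, fell from 1256 ± 153 to 479 ± 104 (-1.40 ± 0.17, adjusted p = 9.34e-05). TIMELESS itself, named to complete the count after its value was seen, changed by -0.29 ± 0.07 (adjusted p = 0.00971; -0.17 and 0.0859 with equal library totals). WDR5, a subunit of histone methyltransferase complexes, changed by -0.89 ± 0.11 (adjusted p = 8.73e-05).

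Of 7 clock-controlled output genes, 5 were tested, 1 rose and 3 fell, with a median of -0.43, where 38.1% of all tested genes were called and 19.8% fell. NAMPT, the rate-limiting enzyme of NAD salvage, rose from 2144 ± 65.6 to 2900 ± 352 (0.43 ± 0.11, adjusted p = 0.00848). WEE1, a kinase that holds back mitotic entry, fell from 7212 ± 287 to 5342 ± 148 (-0.43 ± 0.08, adjusted p = 0.00118). KLF10 stood at 319, 280 and 268 with DMSO and at 70.0, 115 and 89.5 with MB1-47 (-1.67 ± 0.26, adjusted p = 0.000476), and CDKN1A, a CDK inhibitor, fell from 91.3 ± 24.3 to 20.9 ± 7.67 (-2.10 ± 0.46, adjusted p = 0.00418). PPARA was not called (0.26 ± 0.19, adjusted p = 0.299), and KLF9 and KLF15 had means below 10; these 3 were named after their values were seen. Over the 5 lists of other clock-related genes, 13 of 40 tested genes rose and 9 fell, with a median of 0.14, beside 18.3% and 19.8% of all tested genes and a median of 0.02.

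**Figure D4:**
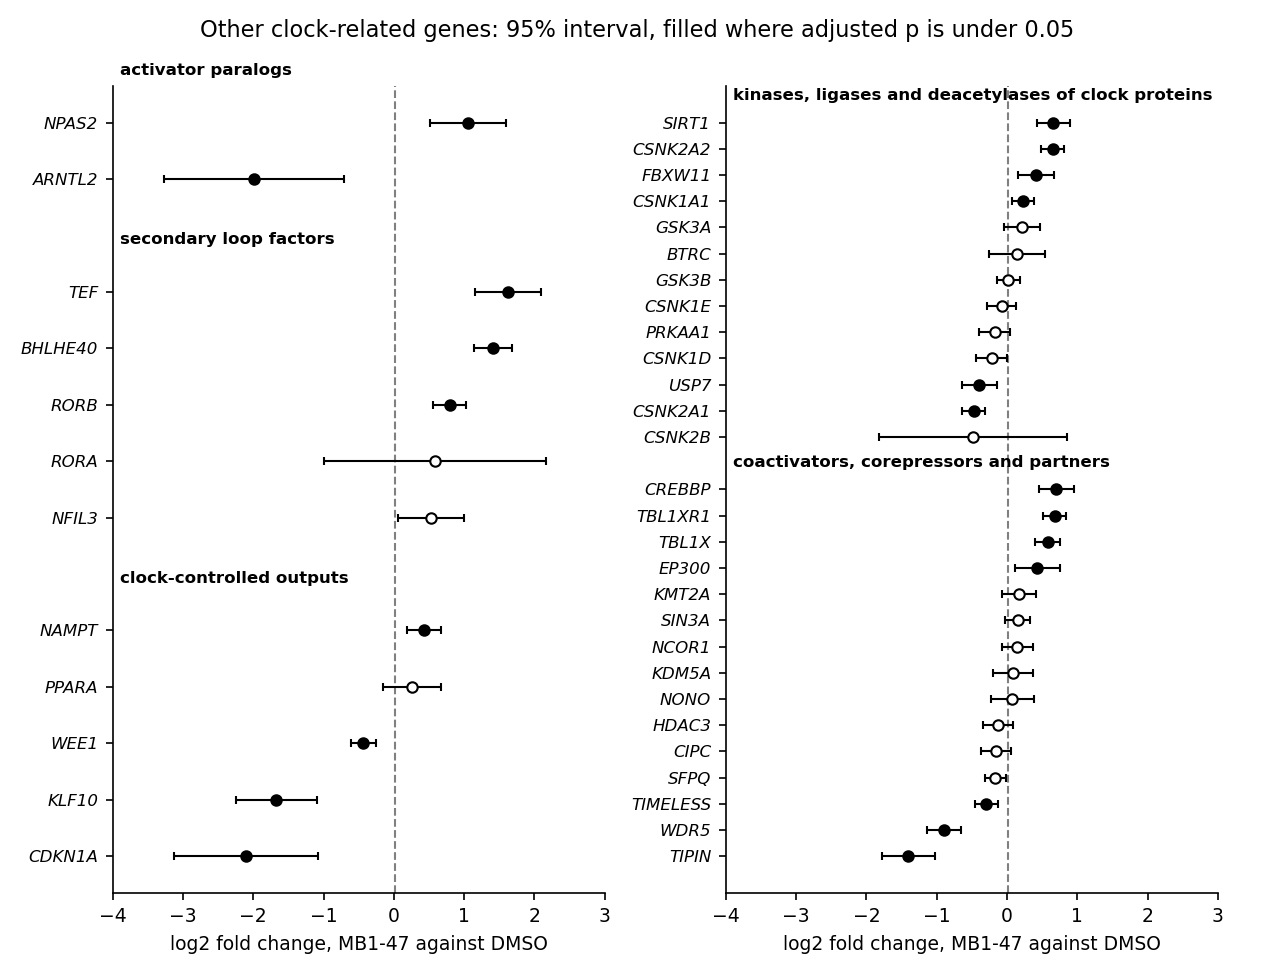
Log2 fold change of MB1-47 against DMSO (x axis) for the 40 tested genes of the 5 lists of other clock-related genes, with 95% intervals; filled points have an adjusted p below 0.05 and the dashed line is the median of all genes tested (0.02). TEF and BHLHE40 lie highest, and CDKN1A and ARNTL2 lowest.

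Among genes averaging at least 100, those whose values followed NR1D2 most closely over the 6 libraries were FBXO48, CEP135 and USO1, with Pearson's r of 0.9995, 0.9994 and 0.9991 on the log2 scale over 10239 genes compared. Their own changes were 1.76, 0.52 and 1.03. An r above 0.95 was reached by 1000 of those genes, since any gene that separates the groups with little scatter correlates with NR1D2 in this design. The 6 points fall into 2 groups, so these values describe likeness only.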

How the data were processed

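Total RNA of 6 libraries was sequenced with strand-specific preparation. The deposited signal is 1 normalized count value per gene symbol and library. The submitters' processing notes name kallisto 0.44.0, DESeq and GRCh38.p13; annotation, transcript summing and strand setting were not given in the sources used here. The values are not whole numbers: with the best step, 57.7% to 63% of low values came within 0.1 of its multiples, so reads were not recovered, depth is unknown and no counting interval is given. No value above 0 was shared between libraries in the same gene.

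Genes with a mean of at least 10 (13465 of 17202) were fitted as log2(value + 1) with limma 3.58.1 in R 4.3.3, with an intensity trend and Benjamini-Hochberg adjustment over all of them at 0.05. A fold change on this scale understates the change of low genes. Fold values are ratios of group means. Gene pairs were compared by exact permutation.

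The members and lists were chosen with earlier results of these data known. Some genes of the lists are not reported here and were left out of the counts of their lists. The rule for named genes took all 9 members, all secondary loop factors, up to 6 called genes per other list with a mean of at least 50, and the 3 genes most like the member with the largest change on the log2 scale. Alternatives were pseudocounts of 0.5 and 5, no filter or a minimum mean of 50, scaling by the trimmed mean of M values or to equal totals, quantile normalization, no trend, a replicate block, and each library left out. Leaving PER3 and NR1D2 out of the repressor score was added after the data were seen. Positions and overlaps are from GENCODE 29, promoters from RefSeq (GRCh38.p14). Plots used matplotlib 3.10.9 and Python 3.11.15.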

Additional observations from a re-analysis of the deposited data

How the results depend on the processing

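CLOCK, CRY1 and NR1D2 were called higher, and no clock gene lower, in all 15 alternative settings, and the number of genes called over the whole table (5125) stayed within 1.5-fold (4172 to 5397). Of 25 called genes named here, 19 were called in every setting; the others were ARNTL2, CSNK1A1, FBXW11, USP7, EP300 and TIMELESS. Among the 25 called genes, scaling moved the change by over 1.5-fold, with no call lost, in CSNK1A1 (equal library totals and quantile normalization) and CSNK2A1 (quantile normalization). Signs turned only in clock genes that were not called: PER2 changed by 0.0067 with equal library totals. Over the sets with a library left out, ARNTL ran from 0.0050 to 0.324, PER2 from -0.310 to 0.0815, NR1D1 from -0.0583 to 0.257 and DBP from -0.0387 to 0.194. The shift of repressors against activators (0.39) was 0.17 with a minimum mean of 50, which removes PER3, and likewise 0.17 without PER3; without PER3 and NR1D2 it was -0.17. With a library left out it ran from 0.30 to 0.53. The replicate numbers gave no sign of pairing: residuals of libraries with the same number correlated at 0.022, 0.057 and 0.007, and 3 of 6 libraries correlated best with their own number. With the replicate block 5246 genes were called, and the same 3 clock genes among them, with NR1D2 at an adjusted p of 5.22e-06. Depth is unknown, which limits what can be said of PER3, HLF and CIART.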
